A study of Sus scrofa with 9 samples.

Results

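Transcripts of 4 ligands of the epidermal growth factor (EGF) receptor were followed in pig esophagus and in spheroids grown from its glands. The ligands are amphiregulin (AREG), epiregulin (EREG), heparin-binding EGF-like growth factor (HBEGF) and transforming growth factor alpha (TGFA). A probe set, the group of array probes that together measure a transcript, was taken as a member where the platform annotation gave it 1 gene symbol and that symbol was one of these. Each of the 4 genes had 1 such probe set, which makes 4 of 12217 genes tested and 4 of 27558 probe sets on the array.

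The Affymetrix PorGene 1.0 ST array was hybridised with total RNA of 9 samples, 3 in each of 3 groups. Esophageal submucosal glands (ESMG), which secrete mucus and fluid onto the esophageal lining, and the squamous tissue above them came from the same control pigs, numbered 37, 39 and 40. Spheroids derived from ESMG carried the pig numbers 1, 2 and 3. They were grown in Matrigel under a medium (Advanced DMEM/F12) with 10 mM HEPES, the supplements B27 and N2 and recombinant human EGF at 50 ng/ml. No strain, genotype, age or time in culture is given in the sources used here, nor how pigs 1 to 3 relate to the other animals. Every spheroid sample had EGF in its medium and no tissue sample was cultured. Spheroid RNA was also prepared with another kit. The effects of EGF, of culture, of the animals and of the kit therefore cannot be told apart in any comparison with spheroids.

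The ligands of this family are made as precursors that span the cell membrane. Metalloproteinases, chiefly ADAM17 for these genes, cut them at the cell surface, and the released part binds the EGF receptor on the same cell or its neighbours. AREG and TGFA bind the EGF receptor alone, while EREG and HBEGF also bind the related receptor ERBB4. The receptors signal through RAS and the kinase ERK, and in squamous epithelium and keratinocytes these ligands are known for driving growth and wound repair. Transcription of several of them is itself raised by ERK, so that the pathway can feed itself, and the phosphatases and adaptor proteins that ERK also induces hold it back. The array measures transcripts only, not the precursor proteins, their cleavage or receptor activity.

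Levels are on the log2 scale of the RMA method, where a step of 1 stands for a 2-fold change in signal. Levels of different genes depend on their probes and are not compared with each other. A gene was called where limma gave a Benjamini-Hochberg adjusted p under 0.05 over all 12217 genes and the fold was at least 2. The array medians lay between 6.84 and 7.04 and the lower quartiles between 5.36 and 5.65. The median log2 difference over all genes was -0.06 for ESMG minus squamous tissue, 0.09 for spheroids minus ESMG and 0.03 for spheroids minus squamous tissue. With array medians set equal, the median for spheroids minus ESMG was 0.20 and that for spheroids minus squamous tissue 0.16. All 7 gland marker genes were called higher in ESMG than in squamous tissue, beside 2.65% of all genes. None of 5 squamous markers was called lower in ESMG, beside 0.409% of all genes. Of those 5 squamous markers, 3 had an unadjusted p under 0.05 in this direction. The ESMG array of pig 40 had the lowest gland marker sum of its group and the highest squamous marker sum. On a linear scale the gland sum was 20352, against 34700 and 32013 in ESMG of pigs 37 and 39. The squamous sum was 26072, against 17528 and 21762. It was 28068 to 31125 in squamous tissue and 14721 to 16452 in spheroids. Spheroids thus had such a sum too, although 3 of the 5 markers were called lower there than in ESMG, beside 8.91% of all genes. A linear sum is led by its brightest genes, so it is not a measure of overlying squamous tissue alone. Whether the ESMG samples held such tissue was not tested.

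All 4 ligands were called higher in spheroids than in ESMG, and 3 of 4 were called higher in spheroids than in squamous tissue. Of all genes tested, 7.99% were called higher and 8.91% lower in spheroids than in ESMG, 16.9% in all. Against squamous tissue these shares were 8.61% and 8.05%, 16.7% in all. Every spheroid array lay above every ESMG array in 4 of 4 ligands and in 30.3% of all genes. Every spheroid array lay above every squamous array in 3 of 4 ligands and in 28.6% of all genes. AREG rose 66.9-fold over ESMG, EREG 8.50-fold, HBEGF 2.85-fold and TGFA 2.39-fold. None of the 4 was called between ESMG and squamous tissue, where limma called 3.06% of all genes (2.65% higher in ESMG and 0.409%, or 50 genes, lower) and 1 of the 4, HBEGF, had an unadjusted p under 0.05. ESMG and squamous arrays overlapped in all 4 ligands, while they were apart in 21.6% of all genes. The 50 genes called lower in ESMG numbered 122 when ESMG of pig 40 was left out and 24 when ESMG of pig 39 was. In that comparison EREG and HBEGF were called higher in squamous tissue when arrays were weighted by quality (log2 differences -1.23 and -1.18), and HBEGF also without the ESMG array of pig 40 (-1.12). The comparisons with spheroids share the spheroid arrays, so their differences are given side by side and not as independent evidence. Since these are bulk samples, fewer cells that make a transcript and less of it per cell cannot be told apart.

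**Figure D1:**
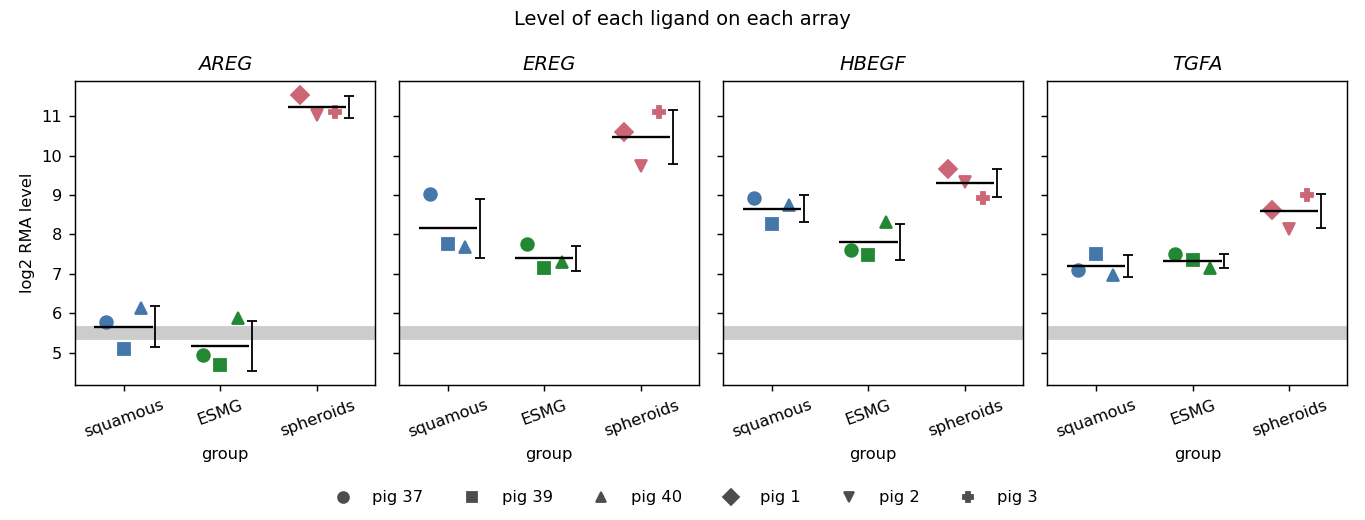
Log2 RMA level of AREG, EREG, HBEGF and TGFA on each of the 9 arrays, with groups on the horizontal axis, a marker shape for each pig, a bar at the group mean and an error bar of 1 SD (n = 3). The grey band spans the lower quartiles of the arrays (5.36 to 5.65), and in AREG the 3 spheroid arrays sit between 11.03 and 11.54 while all tissue arrays lie at 6.12 or lower.

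AREG, a ligand known for autocrine growth of epithelial cells, was dim in both tissues and bright in spheroids. In ESMG it stood at 4.94, 4.67 and 5.88 in pigs 37, 39 and 40. In squamous tissue it stood at 5.78, 5.08 and 6.12 in the same pigs. In spheroids of pigs 1, 2 and 3 it stood at 11.54, 11.03 and 11.11. The spheroid arrays did not overlap with either tissue, and the range among them was 0.51. The means were 5.16 ± 0.63 in ESMG, 5.66 ± 0.53 in squamous tissue and 11.23 ± 0.27 in spheroids (SD, n = 3 each). Spheroids exceeded ESMG by 6.06 (SE 0.32, adjusted p = 1.28e-07), the second largest rise among all genes tested. They exceeded squamous tissue by 5.57 (SE 0.32, adjusted p = 2.17e-07), the fifth largest, or 47.5-fold. The level lay under the lower quartile of the array in ESMG of pigs 37 and 39 and in squamous tissue of pig 39. Array values carry little information on a transcript's true level there, and these folds rest on them. ESMG and squamous tissue overlapped, with a difference of -0.50 (95% interval -1.19 to 0.20, adjusted p = 0.463).

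EREG, which activates both the EGF receptor and ERBB4, was measured well above the lower quartile on every array. Its ESMG levels were 7.75, 7.13 and 7.29 in pigs 37, 39 and 40, and its squamous levels 9.02, 7.75 and 7.68. In spheroids it stood at 10.59, 9.75 and 11.10. Every spheroid array lay above every tissue array, but the spheroids spread over 1.35 and the squamous arrays over 1.34, the latter through the high value of pig 37. The means were 7.39 ± 0.32 in ESMG, 8.15 ± 0.75 in squamous tissue and 10.48 ± 0.68 in spheroids (SD, n = 3 each). The rise over ESMG was 3.09 (SE 0.38, adjusted p = 6.16e-05), and that over squamous tissue was 2.33 (SE 0.38, adjusted p = 0.000461), or 5.02-fold. Without the squamous array of pig 37 the latter was 2.76. ESMG and squamous arrays overlapped, and their difference of -0.76 was not called (95% interval -1.59 to 0.07, adjusted p = 0.322). That difference was -0.33 without the squamous array of pig 37. With array weights in limma it was -1.23 and called (adjusted p = 0.0400).

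HBEGF, whose membrane-bound form is also the receptor of diphtheria toxin, had a higher mean in squamous tissue than in ESMG. ESMG arrays read 7.61, 7.46 and 8.33 in pigs 37, 39 and 40, and squamous arrays 8.93, 8.27 and 8.75. Spheroid arrays read 9.65, 9.33 and 8.93. The order of the means was ESMG (7.80 ± 0.46), squamous tissue (8.65 ± 0.34) and spheroids (9.31 ± 0.36; SD, n = 3 each). Spheroids and ESMG did not overlap, and the difference of 1.51 was called (SE 0.26, adjusted p = 0.000638). Spheroids and squamous tissue touched, the spheroids of pig 3 and the squamous array of pig 37 both rounding to 8.93, and the difference of 0.65 was not called (95% interval 0.09 to 1.22, adjusted p = 0.0636). The adjusted p was under 0.05 in 5 of 19 alternatives, among them those without the ESMG array of pig 40 (0.0280), without the spheroids of pig 3 (0.0331) and with array weights (0.00170). The difference stayed under the 2-fold minimum in each, at 0.84 at most. ESMG lay under squamous tissue by -0.85 (95% interval -1.42 to -0.29, adjusted p = 0.0821). With pig as a fixed block in the 6 tissue arrays the adjusted p was 0.0494, still at 1.81-fold and therefore not called.

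TGFA, the classical autocrine ligand of keratinocytes, had mean levels in the 2 tissues that lay close together. It read 7.50, 7.35 and 7.15 in ESMG and 7.10, 7.51 and 6.96 in squamous tissue of pigs 37, 39 and 40, and 8.62, 8.15 and 8.99 in spheroids. The tissues overlapped across the whole ESMG range, and every spheroid array lay above every tissue array. The means were 7.33 ± 0.17 in ESMG, 7.19 ± 0.28 in squamous tissue and 8.59 ± 0.42 in spheroids (SD, n = 3 each). Spheroids exceeded ESMG by 1.26 (SE 0.22, adjusted p = 0.000658) and squamous tissue by 1.40 (SE 0.22, adjusted p = 0.000317), or 2.64-fold. The difference between ESMG and squamous tissue was 0.14 (95% interval -0.34 to 0.62, adjusted p = 0.802).

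**Figure D2:**
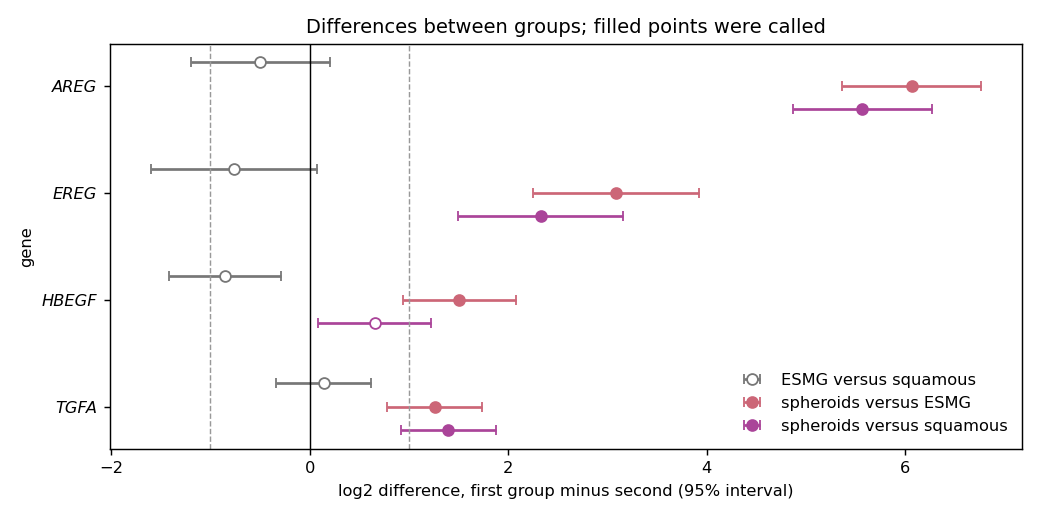
Log2 difference of each ligand in the 3 comparisons, first group minus second, with its 95% interval from limma; filled points were called and dashed lines mark a 2-fold difference. The AREG rise over ESMG (6.06) lies far to the right of the others, and the open points include all 4 differences between ESMG and squamous tissue and that of HBEGF between spheroids and squamous tissue (0.65).

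Ratios between ligands on the same array show how unequal their changes were. Taken within each array, the log2 ratio of AREG to EREG lay between -2.81 and -1.41 in ESMG and between 0.01 and 1.29 in spheroids. That of AREG to HBEGF moved by 4.56 from ESMG to spheroids, that of AREG to TGFA by 4.81, that of EREG to HBEGF by 1.58 and that of EREG to TGFA by 1.83. The AREG level in ESMG of pigs 37 and 39 lay under the lower quartile of its array, so the sizes of the shifts with AREG carry the same limit as its fold. In each of these 5 pairs with AREG or EREG against ESMG, the 3 spheroid arrays lay above the 3 ESMG arrays, and the two-sided exact permutation test gave p = 0.1, the smallest that 3 against 3 can give. The ratio of HBEGF to TGFA moved by 0.25, with overlapping arrays (exact permutation p = 0.9). Against squamous tissue the ratio of EREG to TGFA also overlapped, moving by 0.93 (exact permutation p = 0.2). In all, 18 such ratios were compared over 6 pairs and 3 comparisons, and none can pass a threshold of 0.05 in this design.

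Paired by the pig numbers of the labels, 3 of the 4 ligands were lower in the gland in each of the 3 pairs. The share of all genes lower in ESMG in every pair was not computed, so this count is a description only. The median difference over all genes also lay lower in ESMG (-0.06). Over all genes, the deviations of ESMG and squamous arrays from their group means correlated at -0.15 within pig 39 and -0.17 within pig 40. Between the ESMG array of one of these pigs and the squamous array of the other they correlated at 0.24 and 0.37. The pairs therefore rest on the labelled numbers. If the squamous arrays of pigs 39 and 40 changed places, EREG would stay lower in ESMG (7.13 against 7.68 and 7.29 against 7.75). AREG (5.88 against 5.08) and HBEGF (8.33 against 8.27) would not, in ESMG of pig 40. HBEGF in ESMG lay under squamous tissue by -1.33, -0.81 and -0.43 in pigs 37, 39 and 40. EREG lay under it by -1.27, -0.62 and -0.39, and AREG by -0.84, -0.41 and -0.24. TGFA had no shared direction, with 0.39, -0.16 and 0.18. Thus pig 37 had the widest gap in these 3 ligands and pig 40 the narrowest. Pig 40 also had the highest AREG level of both tissues, and its ESMG array the highest HBEGF level of that tissue. Other ligands went the other way: pig 40 had the lowest TGFA level of both tissues (7.15 and 6.96) and the lowest squamous EREG level (7.68). The ESMG and squamous arrays of pig 40 also held the highest levels of the immediate early gene EGR1 (11.28 and 10.83, against 8.68 to 9.74 in the other tissue arrays) and of FOS (10.35 and 9.66, against 7.99 to 8.10). The parts of these genes and of the squamous marker transcripts in the ESMG array of pig 40 in the ligand levels were not tested.

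AREG and EREG lie side by side. In the RefSeq annotation of the pig assembly Sscrofa11.1 the protein-coding genes run CXCL2, MTHFD2L, EPGN, EREG, AREG, BTC, PARM1, RCHY1 and THAP6, so that 4 EGF family genes follow each other; EPGN and PARM1 were not analysed here. These neighbours were picked by their place and not by a rule on values. BTC (betacellulin), the neighbour of AREG on its other side and a ligand of the EGF receptor and ERBB4, was not called in any comparison. BTC read 6.72, 7.21 and 6.62 in ESMG, 6.59, 6.44 and 7.58 in squamous tissue and 6.23, 6.39 and 7.32 in spheroids. These ranges overlapped, and spheroids minus ESMG was -0.20 (SE 0.33, adjusted p = 0.667). CXCL2, a neutrophil chemokine, was higher in spheroids by 1.98 over ESMG (adjusted p = 0.000200) and by 4.75 over squamous tissue (adjusted p = 3.07e-07). MTHFD2L, a mitochondrial folate enzyme, was called against squamous tissue (1.11) and not against ESMG (0.67, adjusted p = 0.0370). Further along, RCHY1 and THAP6 were called in neither comparison, with spheroids minus ESMG at -0.16 and 0.68. For THAP6 only the 2-fold minimum was missed, with a limma adjusted p of 0.0146 against ESMG and 0.00618 against squamous tissue (0.80). HBEGF and TGFA lie on other chromosomes, each away from the EREG and AREG pair.

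**Figure D3:**
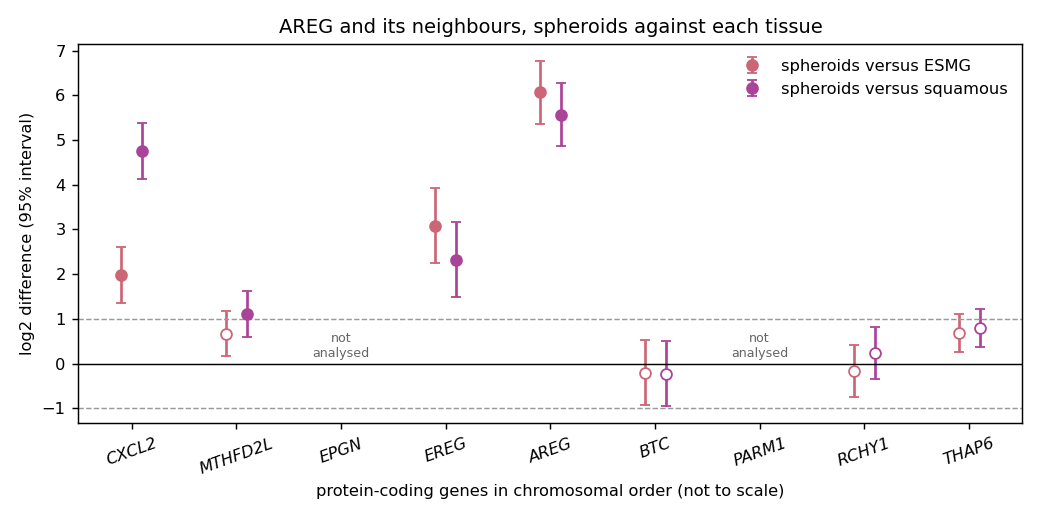
Log2 differences with 95% intervals for AREG and the measured protein-coding genes around it, in chromosomal order and not to scale, for spheroids against ESMG and against squamous tissue; filled points were called. EREG (3.09) and AREG (6.06) stand above their neighbour BTC (-0.20) in spheroids against ESMG, and CXCL2 is also called.

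The genes whose pattern was most like each ligand were found by the root mean square difference of log2 levels over the 9 arrays, after each gene was centred on its own mean. For AREG these were the collagenase MMP13 (0.74), the membrane mucin MUC4 (0.92) and PLAU (0.95), the gene of urokinase. Their spheroid minus ESMG differences were 5.84, 4.15 and 3.86, that of MMP13 from an ESMG mean of 5.40, near the floor. For EREG they were PDE6C (0.45), the activin-binding follistatin FST (0.46) and MLLT11 (0.47), and FST shared its intermediate squamous level (8.34, against 7.58 in ESMG and 10.32 in spheroids). For HBEGF they were the growth factor BMP2 (0.19), the keratinocyte lipid transporter ABCA12 (0.20) and the co-chaperone BAG2 (0.26). The means of all 3 had the order ESMG, squamous tissue, spheroids. These genes and FST were picked for closeness on these same 9 arrays, so the shared orders follow largely from the pick. For TGFA they were G6PC3 (0.16), BRI3BP (0.17) and the checkpoint kinase CHEK1 (0.17). EREG stood at place 41 in the likeness to AREG (1.59). Neither HBEGF nor TGFA came nearer to AREG, at 2.25 and 2.21.

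None of the remaining ligands of the receptor family was called higher in spheroids, with no unadjusted p under 0.05 in that direction in limma's fit. Of 7 listed, 3 were measured, and 1 was called lower, NRG4, a neuregulin that binds ERBB4. Of all genes, 7.99% were called higher and 8.91% lower than in ESMG, and 8.61% and 8.05% than in squamous tissue. NRG4 read 8.31, 8.83 and 8.85 in ESMG, 8.85, 8.79 and 9.03 in squamous tissue, and 6.60, 6.40 and 5.82 in spheroids. All spheroid arrays lay under all tissue arrays, by -2.39 against ESMG (SE 0.21, adjusted p = 5.83e-06) and by -2.62 against squamous tissue (SE 0.21, adjusted p = 2.56e-06). NRG3, another ERBB4 ligand, lay between 4.42 and 5.04 on all arrays, under every lower quartile, and spheroids minus ESMG was 0.24 (adjusted p = 0.292).

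Of the 4 receptors, ERBB2 and ERBB4 were measured; EGFR and ERBB3 were not analysed here. ERBB2, the partner receptor that binds no ligand itself, read 8.80 to 8.88 in spheroids, 8.25 to 8.99 in ESMG and 8.68 to 9.10 in squamous tissue. Its spheroid minus ESMG difference was 0.21 (95% interval -0.20 to 0.62, adjusted p = 0.417). ERBB4, the receptor shared by EREG, HBEGF, BTC and the neuregulins, was highest in ESMG at 9.09, 9.82 and 8.87. It read 7.93, 8.10 and 8.13 in squamous tissue and 7.25, 7.19 and 7.09 in spheroids. The groups did not overlap. ESMG exceeded squamous tissue by 1.21 (SE 0.21, adjusted p = 0.00554), and spheroids fell under ESMG by -2.08 (SE 0.21, adjusted p = 1.41e-05). Without the ESMG array of pig 39 the difference between ESMG and squamous tissue was 0.93 and not called.

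Among genes that carry ligands to the surface or govern their cleavage, 15 of 18 listed were measured. In spheroids 3 were called higher and 2 lower than in ESMG, beside 7.99% and 8.91% of all genes, and the list median was 0.33 beside 0.09. ADAM8, a metalloproteinase of leukocytes and activated epithelium, read 9.07, 9.37 and 9.22 in spheroids against 6.54 to 6.85 in ESMG, a rise of 2.54 (adjusted p = 6.09e-07). RHBDF1, the inactive rhomboid that escorts ADAM17, rose by 1.70 from 8.07 to 8.59 in ESMG to 9.84 to 10.22. The inhibitor TIMP3, which blocks ADAM17 and is abundant in connective tissue, fell by 2.16, and ADAM19 fell by 1.29. The third gene called higher, TIMP1 at 1.07, was named after its value was seen. It was not called in 5 of 19 alternatives, among them those without the ESMG array of pig 39 (0.66) or the spheroids of pig 1 (1.07) or pig 2 (1.03). ADAM17 itself, also named outside the rule, read 9.03, 9.12 and 9.07 in ESMG and 8.80, 8.53 and 9.24 in spheroids (difference -0.21, adjusted p = 0.379). Against squamous tissue 4 were called higher (those 3 and ADAM9 at 1.81) and the same 2 lower, beside 8.61% and 8.05% of all genes. None was called by limma between ESMG and squamous tissue, beside 3.06% of all genes, and 4 had an unadjusted p under 0.05.

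Of 10 measured RAS and ERK pathway components of 19 listed, 1 was called higher in spheroids than in ESMG and none lower, beside 7.99% and 8.91% of all genes, so the share is near that of genes in general. The list median was 0.39, beside 0.09 over all genes. It was RPS6KA1, the ribosomal S6 kinase that ERK activates, which read 10.21, 10.19 and 10.09 in spheroids against 7.89 to 8.44 in ESMG (1.96, adjusted p = 3.72e-06). Of the rest, 5 had an unadjusted p under 0.05. The adaptor GAB1, named after its value was seen, lay at -0.88 (adjusted p = 0.000245), under the 2-fold minimum. Against squamous tissue RPS6KA1 was again called higher and GAB1 lower (-1.23), beside 8.61% and 8.05% of all genes.

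Genes listed as feedback inhibitors of the pathway were measured for 18 of 21. How each gene acts on the receptors was not tested, and UBASH3B in particular need not restrain them, so the counts do not measure inhibition. In spheroids 5 were called higher and 3 lower than in ESMG, beside 7.99% and 8.91% of all genes, and the median was 0.32 beside 0.09. DUSP4, a nuclear phosphatase of ERK, read 9.22, 9.53 and 9.27 in spheroids against 6.91 to 7.31 in ESMG, a rise of 2.21 (SE 0.16, adjusted p = 1.20e-06). DUSP7, a cytoplasmic phosphatase of ERK, rose by 2.02 and UBASH3B, a phosphatase that binds the ubiquitin ligase CBL, by 1.75. LRIG1, a membrane protein that sends ERBB receptors to degradation, read 5.10, 5.29 and 5.54 in spheroids against 7.97, 8.43 and 7.38 in ESMG. It fell by 2.61 (SE 0.23, adjusted p = 5.23e-06), down to levels near the lower quartile of the arrays. The remaining calls, named after their values were seen, were DUSP5 (1.34) and SPRED1 (1.05) higher and SPRY1 (-1.28) and LRIG3 (-1.07) lower. Leaving out the ESMG array of pig 39 ended the calls on DUSP5 (0.98) and LRIG3 (-0.93), and leaving out the spheroids of pig 1 that on LRIG3 (-0.97). Leaving out the ESMG array of pig 40 or the spheroids of pig 3 ended that on SPRED1 (0.83 and 0.95). The SPRED1 call was also lost under quantile normalization (0.94), cyclic loess (0.88) and array weights (0.89), and that on LRIG3 with equal array medians (-0.95). Against squamous tissue the same genes but DUSP5 were called, 4 higher and 3 lower, beside 8.61% and 8.05% of all genes. Between ESMG and squamous tissue limma called none, beside 3.06% of all genes, with 2 at an unadjusted p under 0.05.

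Most of the measured genes that ERK induces rose with the ligands. Of 15 measured of 20 listed, 11 were called higher and none lower in spheroids than in ESMG, beside 7.99% and 8.91% of all genes. The list median was 1.94 beside 0.09 over all genes. Against squamous tissue 11 were called higher and none lower, beside 8.61% and 8.05% of all genes (median 2.40 beside 0.03). The list was drawn up with earlier results of these samples known, so its direction is not independent evidence. PLAU read 11.88, 12.01 and 11.96 in spheroids against 7.49 to 8.60 in ESMG, a rise of 3.86 (SE 0.29, adjusted p = 1.62e-06). The immediate early gene IER3 rose by 3.72, the chromatin protein HMGA1 by 3.01 and the chemokine CXCL8 by 2.55. The 4 genes not called, named after their values were seen, were the transient early response genes EGR1 (-0.59) and FOS (0.44), IER2 (0.40) and MYC (0.32). Between ESMG and squamous tissue 2 genes were called higher in ESMG, beside 2.65% of all genes, CXCL8 at 3.33 and PHLDA1 at 1.16. The call on PHLDA1 was lost without the ESMG array of pig 37 (0.99) or 39 (1.10), or the squamous array of pig 40 (1.06).

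Targets of the coactivator YAP and its partner TEAD, among which AREG is often counted, were measured for 13 of 22 listed. In spheroids 2 were called higher and 4 lower than in ESMG, beside 7.99% and 8.91% of all genes, and the median was 0.33 beside 0.09. The matricellular CYR61, a prototype target, read 10.41, 10.71 and 9.89 in spheroids against 8.03 to 9.16 in ESMG (1.72, adjusted p = 0.00393). The other gene called higher, MYOF at 1.68, was named after its value was seen. The largest falls were in CCDC80 (-4.68), a matrix protein, NT5E (-3.97), the surface enzyme CD73, and RBMS3 (-2.49), an RNA-binding protein. With the mean of its probe sets NT5E fell by 2.81. TGFB2, the remaining call, fell by 1.01 and was called in 10 of 18 alternatives. In spheroids NT5E read 4.65 to 4.98 and TGFB2 5.16 to 5.30, under every array's lower quartile, so the sizes of their falls rest on values near the floor. Against squamous tissue 6 were called higher and 4 lower, beside 8.61% and 8.05% of all genes, and the list median was 0.70 beside 0.03. Between ESMG and squamous tissue CTGF was called higher in ESMG (1.31), beside 2.65% of all genes, a call kept in 8 of 20 alternatives. Of 3 measured further AP-1 subunits of 8 listed, ATF3 was called higher in spheroids than in ESMG (1.20, adjusted p = 0.0106). JUN was not called (-0.07), nor was ATF2, at -0.70 (adjusted p = 0.00157) with every spheroid array (9.90 to 10.05) under every ESMG array (10.48 to 10.89).

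**Figure D4:**
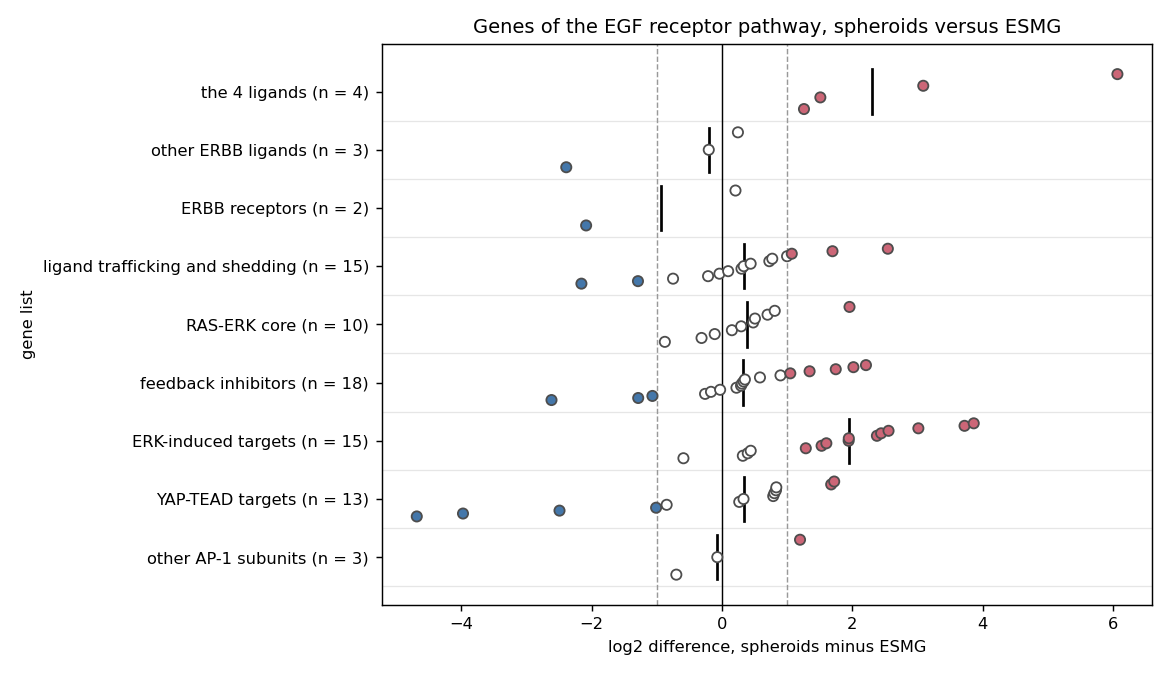
Log2 difference between spheroids and ESMG for each measured gene of the ligand, receptor, cleavage, signalling, inhibitor and target lists, with a black bar at each list's median. Red points were called higher, blue points called lower and open points not called, and dashed lines mark a 2-fold difference; of the larger lists, that of ERK-induced targets lies furthest to the right (11 of 15 called higher, median 1.94).

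Most markers of connective tissue, muscle and vessels, and part of those of immune cells, fell in spheroids beside the rise of the ligands. All 6 fibroblast, 4 smooth muscle and 4 endothelial markers measured were called lower in spheroids than in ESMG, beside 8.91% of all genes. So were 4 of 8 macrophage and monocyte markers, 3 of 4 mast cell markers and 2 of 5 lymphocyte markers, and none of these was called higher. AIF1 of the macrophage list went the other way, at 0.82 over ESMG (adjusted p = 0.0321, under the 2-fold minimum) and called higher over squamous tissue at 1.27. Summed on a linear scale, fibroblast markers ranged from 1439 to 3296 in spheroids, from 26894 to 34734 in ESMG and from 28068 to 32909 in squamous tissue. Macrophage and monocyte markers, of cells that can also make AREG, EREG and HBEGF, summed to 1390 to 1428 in spheroids, 5488 to 8512 in ESMG and 2260 to 6050 in squamous tissue. Mast cell markers summed to 204 to 227, 951 to 1462 and 543 to 804. Epithelial markers also moved: 3 of 7 gland and 3 of 5 squamous markers were called lower in spheroids than in ESMG, and none higher. The shares of all genes were 8.91% lower and 7.99% higher. Against squamous tissue 5 of 7 gland markers were called higher and 4 of 5 squamous markers lower, beside 8.61% and 8.05% of all genes. Of the 4 keratins measured in these lists, KRT15 was called lower, with spheroids minus ESMG at -2.89. KRT8, KRT18 and KRT5 were not called, at 0.26, 0.24 and 0.90. These 3 do not stand for their lists. The gland list had a median of -0.66 and a lowest difference of -5.92, and the squamous list -2.89 and -4.04. The part of a lower share of other cells in the rise of the ligands was not tested.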

How the data were processed

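Affymetrix Expression Console was used by the authors to summarise probes with RMA into 1 log2 value per gene-level probe set, per the labels. The submitters' processing notes also name Transcriptome Analysis Console 3.0, with no role. RMA makes array distributions alike and compresses differences near the floor. No genome build is stated in the sources used here, so no coordinates are given. Groups and pig numbers came from sample titles. Of 27558 probe sets, 13157 had 1 symbol; the one with the highest mean stood for a gene (12217 genes).

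A group-means model of all 9 arrays (6 residual degrees of freedom) was fitted with limma 3.58.1 in R 4.3.3, tested on simulated data, and p-values were adjusted over all genes. The ligands, gene lists and likeness rule were chosen with earlier results of these data known. Named list genes are the receptors, the other ligands and, per list, up to 4 called genes with the largest difference between spheroids and ESMG. Some exceptions are marked where they are named. ADAM9, PHLDA1, CTGF, TGFB2, JUN, ATF2, AIF1, the keratins, and EGR1 and FOS in pig 40 were also named outside this rule. Precision is limited by 3 arrays a group, biological replicates per the series' design text. ESMG and squamous arrays of 1 number come from the same pig, per the titles; their deviations from the tissue means correlated at 0.42, -0.15 and -0.17 in pigs 37, 39 and 40, and those of different pigs at -0.31 to 0.37. Alternatives covered normalization, dim genes, probe sets, the variance model, array weights, pig as a block and leaving out each array. Protein and promoter sequences were not used here.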

Additional observations from a re-analysis of the deposited data

How the results depend on the processing

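The calls of all 4 ligands in spheroids versus ESMG, and of AREG, EREG and TGFA in spheroids versus squamous tissue, held their direction and side of the threshold under each of 19 alternatives. Over these the rise over ESMG ranged from 5.82 to 6.51 for AREG, 2.78 to 3.45 for EREG, 1.33 to 1.93 for HBEGF and 1.06 to 1.48 for TGFA. In ESMG versus squamous tissue, array weights called EREG (-1.23, adjusted p = 0.0400) and HBEGF (-1.18, adjusted p = 0.00401), against an adjusted p of 0.0400 to 0.690 and 0.00401 to 0.278 over all 20 alternatives of each. Leaving out single arrays moved the difference of HBEGF from -1.12 to -0.69 and its call was made only without the ESMG array of pig 40. Counts of called genes with single arrays left out ranged from 276 to 569 in ESMG versus squamous tissue, and those lower in ESMG, 50 in the main setting, were 24 without the ESMG array of pig 39, 25 without that of pig 37, 122 without that of pig 40, 30 with squamous pig 37 left out and 27 with squamous pig 40 left out. The array weights gave 393 higher and 120 lower. Testing all probe sets, named or not, gave 604 called features between the tissues, 4153 between spheroids and ESMG and 4129 between spheroids and squamous tissue, since more features were tested; the counts over genes were 374, 2065 and 2035. Calls of spheroids versus ESMG split into 976 higher and 1089 lower, into 1244 and 935 with array medians set equal, and into 755 and 1245 after cyclic loess. Those of spheroids versus squamous tissue split into 1052 and 983, and into 1370 and 834 with medians set equal. With pig as a fixed replicate block in the tissue arrays, 397 genes were called, and as a random replicate block 335; neither changed a call on a ligand. Of 928 recomputed list counts 895 were equal to the main count or within 1.5 times it. Many main counts were 0, and a 0 that stayed 0 was included, so lists without calls raise this number. All 36 recomputed ligand ratios were within 1 SD of the main value, and equal medians leave such ratios unchanged by construction. Signal near the floor limits the fold of AREG.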
